A study of Homo sapiens with 12 samples.

Results

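The ATF4 and amino acid stress genes are 33 genes of the 28395 counted in HCT116 cells, chosen by name as members of the transcriptional programme that cells run when amino acids or protein synthesis are disturbed. HCT116 is an established human colorectal cancer cell line. RNA-seq was performed on 4 stable HCT116 lines with 3 libraries each, and the comparisons ask what EHF, an ETS transcription factor of epithelia, and CDX1, a caudal homeobox factor of the intestine, do to expression when present alone or together. HCT116-EV cells carried the empty pcDNA vector under geneticin (G418) selection, and HCT116-EHF cells were geneticin-resistant clones transfected with an EHF plasmid. HCT116-CDX1 cells were infected with a retrovirus that expresses CDX1 and GFP and were sorted for GFP. For HCT116-EHF+CDX1 cells, the EHF plasmid was transfected into HCT116-CDX1 cells and resistant clones were taken. All lines were grown in DMEM-F12 medium with fetal calf serum, no other treatment was named, and the empty retrovirus is not among the lines. The effect of a factor and of the cloning or sorting that made its line cannot be told apart. The labels do not say whether the 3 libraries of a line came from separate cultures, so the p-values measure the spread between these libraries, which may be technical. The legend of the RNA-seq clustering in the study names fewer biological replicates than the libraries of a line. Which libraries these were is not stated.

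Phosphorylation of the translation factor eIF2 by one of its kinases slows bulk protein synthesis while the mRNA of ATF4 is translated better, so that ATF4 protein can rise without a change of its mRNA. ATF4 pairs with C/EBP proteins on C/EBP-ATF response elements and turns on genes for amino acid synthesis, amino acid import and tRNA charging, together with feedback genes that restore translation. In colorectal cancer cells this programme is known to respond to glutamine, asparagine and serine supply, to endoplasmic reticulum stress and to oxidative stress. Since RNA-seq reads mRNA, the levels below concern the mRNA of ATF4 and of its known targets and not ATF4 protein.

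The total counts ranged from 13523007 to 74186741 per library, so that 3 reads corresponded to between 0.0375 and 0.207 CPM (counts scaled to library size with TMM factors). A gene was tested if it reached 0.5 CPM in at least 3 libraries, which kept 15853 genes and 32 of the 33 members. CBS, which makes cystathionine from homocysteine, was the member left out, with at most 4 reads in any library. It has a near-identical copy, CBSL, that had at most 1 read, and reads that map equally to both copies were not counted. The labels held for both factors. EHF was at 19300 ± 305 CPM (SD, n = 3) in HCT116-EHF and 18700 ± 1430 CPM in the combined line, against 299 ± 54.4 CPM with the empty vector and 12.3 ± 0.603 CPM with CDX1 alone. CDX1 was at or below 0.0167 CPM on average in the lines without it, at 525 ± 35.8 CPM when expressed alone and at 5420 ± 277 CPM together with EHF, so its level differed between the lines that carry it. The 5 epithelial markers summed to 2360 to 2860 CPM in HCT116-CDX1 libraries and to 4180 to 5440 CPM elsewhere. Most of that sum was keratin, and EPCAM went the other way, at 491 ± 31.5 CPM with CDX1 and at a mean of 265, 311 and 356 CPM with the empty vector, with EHF and with both. Of the 8 leukocyte, endothelial and fibroblast markers, PTPRC, CD3E, CDH5 and DCN had at most 6 reads in any library. The leukocyte sum, nearly all CD68, was 76.9 to 88.2 CPM in HCT116-CDX1 and at most 26.6 CPM elsewhere, and the fibroblast sum, nearly all COL1A1, was 167 to 219 CPM in HCT116-CDX1 and at most 75.3 CPM elsewhere, a value reached in HCT116-EV replicate 3. Both sums moved with the member genes described below, and their part in those results was not tested. In such bulk libraries a change in the number of cells that express a gene and a change in RNA per cell cannot be told apart.

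The third library of HCT116-EV cells stood apart from the other two. The chi-square per degree of freedom of its counts was 317 and 288 against the other HCT116-EV libraries, where those 2 libraries gave 4.06 against each other, and library pairs of the other lines gave 3.19 to 46.1. The member genes took part in this, as 21 of 32 were at least 2-fold above the mean of replicates 1 and 2 in replicate 3, where 16.0% of all tested genes were, and no member fell to 1/2 of it, where 6.72% of all genes did. The counts of members in each comparison with HCT116-EV are therefore given with all libraries and without this library.

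Per length, the members spanned nearly the whole range of expression. On the deposited log2 RPKM scale (reads scaled to gene length and library size, quantile-normalised), the mean level over 12 libraries was highest for SLC7A5, the light chain of the large neutral amino acid exchanger, at 8.61, followed by ATF4 at 8.23 and SLC3A2, the heavy chain that pairs with SLC7A5, at 7.36. These 3 genes stood above at least 98.4% of the tested genes. The lowest levels were those of VLDLR, a lipoprotein receptor, at -4.23, of ALDH1L2, a mitochondrial folate enzyme, at -2.16 and of NUPR1, a small stress-induced chromatin protein, at -0.89. The last 3 rested on few reads and are read with that in mind. NUPR1 and VLDLR reached 0.5 CPM only in HCT116-CDX1 and HCT116-EHF+CDX1 libraries, so they were tested because they were high in those lines. Their rises there are therefore no separate support for a rise of the members.

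**Figure D1:**
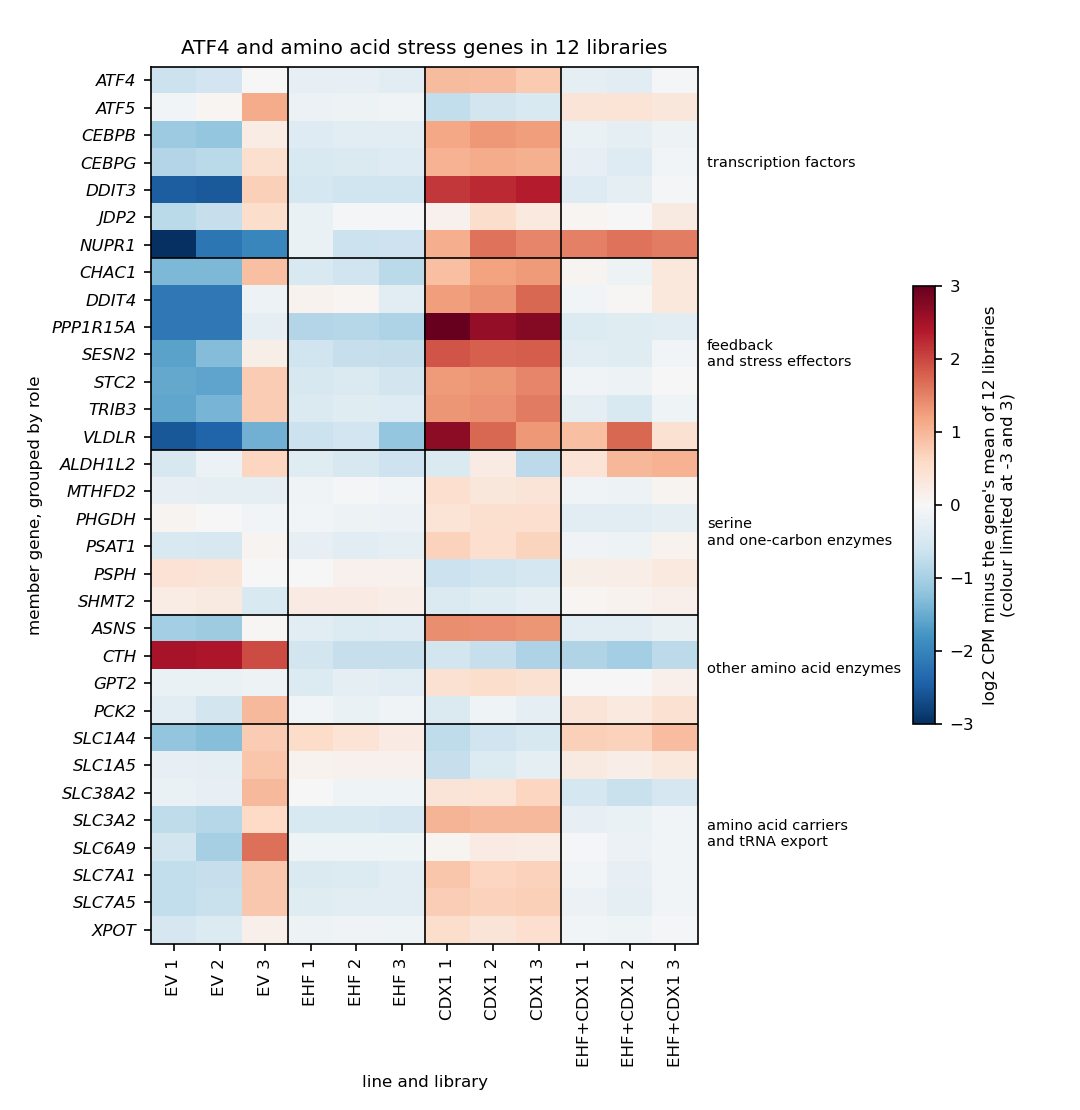
Heat map of the 32 tested members (rows, grouped by role) in the 12 libraries (columns), coloured by log2 CPM minus the mean of the gene over the 12 libraries, with colours limited at -3 and 3. HCT116-CDX1 was the line with the highest mean for 22 of 32 members, HCT116-EV replicate 3 was above the mean of replicates 1 and 2 for 27 of 32, and CTH was high in all 3 HCT116-EV libraries.

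Promoter sequences were examined for the motifs named below. RefSeq promoter windows (GRCh38.p14) were at hand for 28 of the 33 members, in 46 windows, and the 250 bases before each start were searched on both strands. The core of the C/EBP-ATF response element, TGATGNAA, occurred in the windows of 5 of the 28 members (17.9%) and in 10.9% of their windows, where 3.89% of 27305 genes and 3.14% of 35116 windows held it. The members were chosen by name as genes of the programme that acts through this element. A higher share among them thus follows from the choice and is no separate support. Members also had more windows per gene, which raises the share of genes. The elements are shown, in the direction of the gene, because they are the sites by which ATF4 and C/EBP proteins are known to act, and capitals mark the match. The coordinates are those of the printed bases.
ASNS, chr7:97872458-97872487, gene on the minus strand, match 61 to 68 bases before its upstream start: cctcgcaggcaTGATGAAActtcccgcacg
CHAC1, chr15:40953251-40953280, plus strand, 202 to 209 bases before the start, match on the other strand: ctcccctgccgTTGCATCActcctgccagg
CEBPG, chr19:33374060-33374089, plus strand, 35 to 42 bases before its downstream start: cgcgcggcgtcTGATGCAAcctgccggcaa
JDP2, chr14:75427995-75428021, plus strand, 9 to 16 bases before its middle start: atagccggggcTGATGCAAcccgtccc
SLC1A5, chr19:46784893-46784922, gene on the minus strand, 90 to 97 bases before its most downstream start: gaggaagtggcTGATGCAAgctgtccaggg
Of these 5 genes ASNS and CEBPG rose in HCT116-CDX1 cells while CHAC1, JDP2 and SLC1A5 did not pass the test there. The ETS core CCGGAAGT was found for DDIT3 alone, in 3.57% of the members against 4.13% of all genes. The CDX core TTTATNG was found for ATF4 and PPP1R15A, in 7.14% of the members against 10.9% of all genes. Both matches lay on the other strand and read CTATAAA in the direction of the gene, letters that hold TATAAA. They lay 22 to 28 bases before the upstream start of ATF4 and 25 to 31 bases before that of PPP1R15A. Neither is therefore singled out as a CDX site. These matches describe letters and not binding, and no member held matches to more than 1 of the motifs.

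HCT116-CDX1 cells had the highest mean of the 4 lines for 22 of the 32 members, where 39.2% of all tested genes were highest in that line. With all libraries, 14 of 32 members rose and 3 fell against HCT116-EV cells, in a comparison in which 21.3% of all tested genes rose and 23.3% fell (edgeR glmTreat against a 1.5-fold change, Benjamini-Hochberg adjusted p of 0.05). The median log2 fold change of the members was 0.73, beside -0.03 for all genes. Without HCT116-EV replicate 3, 23 members rose and 2 fell, beside 26.2% and 24.9% of all genes, and the median was 1.26 beside 0.04. The count thus depends on that library. With limma voom and all libraries 9 members rose, beside 2691 of 15853 genes. Of the 14, NUPR1 and VLDLR passed the filter only through the lines with CDX1.

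**Figure D2:**
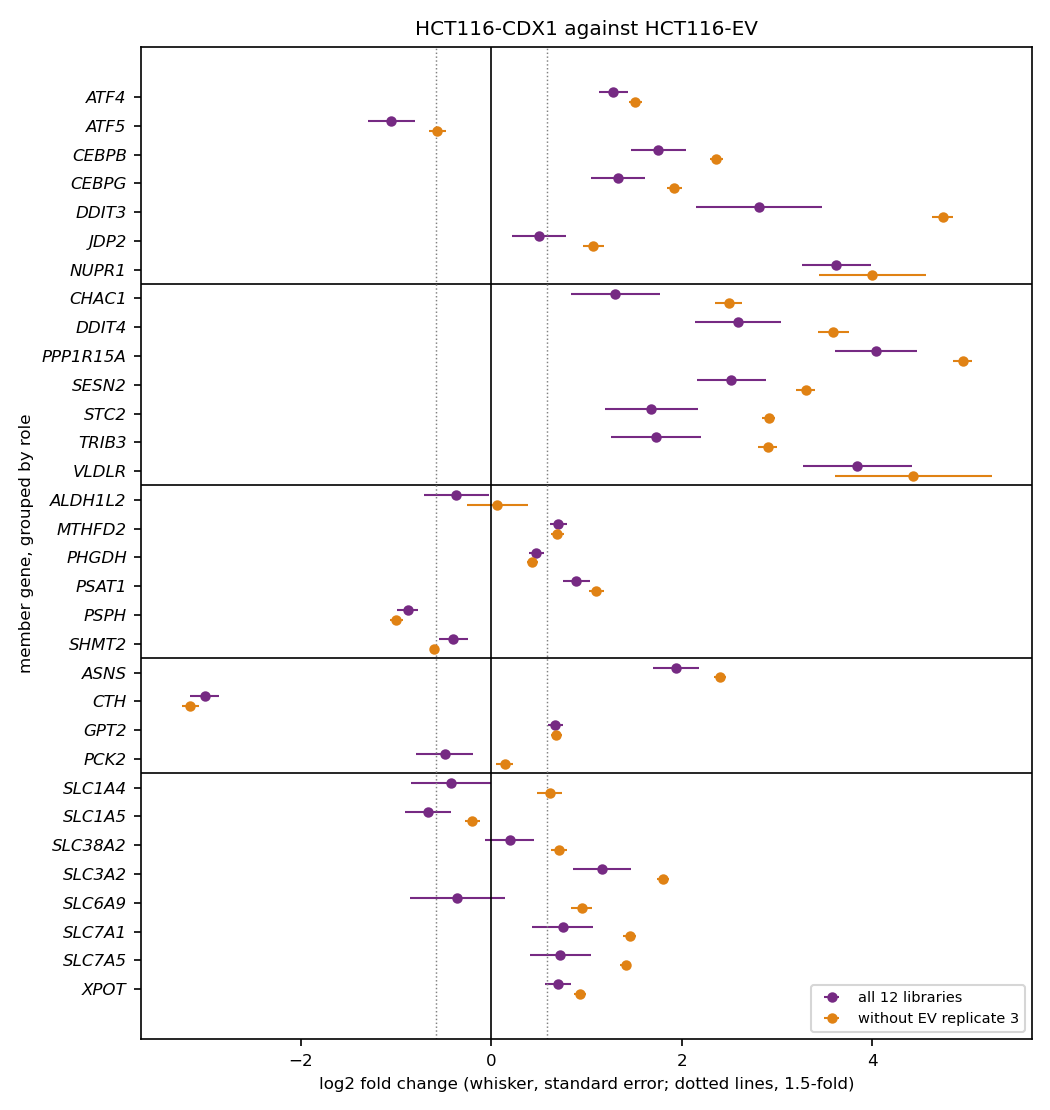
Log2 fold change of each member in HCT116-CDX1 over HCT116-EV cells (x axis) with its standard error (whisker), from all 12 libraries and without HCT116-EV replicate 3, and dotted lines at a 1.5-fold change. The stress effectors lie to the right in both fits, the serine and folate enzymes lie closer to 0 in both, and CTH is at -3.01 and -3.16.

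Of the 7 transcription factors of the group 5 rose and 1 fell, beside 21.3% and 23.3% of all genes. ATF5 fell and JDP2 did not pass. Among the 5 was NUPR1, which passed the filter only through the lines with CDX1, so its rise is no separate support. ATF4 itself (chr22:39520559-39522686) was at 395, 414 and 615 CPM in HCT116-EV and at 1200, 1170 and 1070 CPM in HCT116-CDX1 cells. The lines did not overlap, the means differed 2.42-fold, and the log2 fold change was 1.28 ± 0.15 (SE, edgeR adjusted p = 0.00031). In limma voom with quantile normalisation the same difference was 0.78 and did not pass the 1.5-fold test.

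DDIT3, which encodes the pro-apoptotic factor CHOP (chr12:57516588-57520517), was at 5.86, 5.63 and 52.8 CPM in HCT116-EV and at 142, 154 and 165 CPM in HCT116-CDX1 cells. Its log2 fold change was 2.81 ± 0.66 (edgeR adjusted p = 0.00541), and 4.74 ± 0.11 without HCT116-EV replicate 3, which alone was 9.18-fold above the mean of the other HCT116-EV libraries. DDIT3 shares 355 exon bases with MARS1 on the opposite strand, and no strand setting is given for the counting. MARS1, the methionyl-tRNA synthetase, was at 246, 233 and 410 CPM in HCT116-EV and 502, 467 and 503 CPM in HCT116-CDX1 cells, and the part of such shared reads was not tested.

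CEBPB, a dimer partner of ATF4, was at 25.2, 24.2 and 62.8 CPM in HCT116-EV and 121, 132 and 128 CPM in HCT116-CDX1 cells, a log2 fold change of 1.75 ± 0.29 (edgeR adjusted p = 0.00104). CEBPG, another C/EBP partner of ATF4, was at 51.7, 54.2 and 132 CPM against 196, 205 and 199 CPM, a log2 fold change of 1.33 ± 0.28 (edgeR adjusted p = 0.00863). For both genes every HCT116-CDX1 library lay above every HCT116-EV library, replicate 3 included. The CEBPG call was lost in limma voom (1.12).

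NUPR1 was nearly silent in HCT116-EV cells, with 9 reads over the 3 libraries (0.0431, 0.0947 and 0.11 CPM), and reached 0.898, 1.31 and 1.18 CPM in HCT116-CDX1 cells. The ratio of pooled reads was 12.3 with an exact 95% interval of 6.28 to 27.4 for counting error only, and the gene passed the test (log2 fold change 3.62 ± 0.36, edgeR adjusted p = 7.62e-06). JDP2, a repressor of AP-1, was at 17.4, 19.1 and 43.8 CPM against 33.6, 43.9 and 37.3 CPM. These overlapped, and the log2 fold change of 0.50 ± 0.28 did not pass (edgeR adjusted p = 0.55), whereas without HCT116-EV replicate 3 it was 1.07 and passed.

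ATF5, a factor related to ATF4, went the other way. It was at 24.5, 26.9 and 55.9 CPM in HCT116-EV and 15.5, 17.6 and 19 CPM in HCT116-CDX1 cells, a log2 fold change of -1.05 ± 0.25 (edgeR adjusted p = 0.0285). The call was lost without HCT116-EV replicate 3 (-0.57), without HCT116-CDX1 replicate 1 (-0.97) or replicate 2 (-1.06), in limma voom (-0.92), in DESeq2 (-1.03) and with only the compared lines (-1.10). ATF5 shares 565 exon bases with NUP62 on the opposite strand.

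The feedback and stress effectors moved furthest. Of 7, 6 rose in HCT116-CDX1 cells, beside 21.3% of all genes, with a median log2 fold change of 2.52 beside -0.03. Among the 6 was VLDLR, which passed the filter only through the lines with CDX1, so its rise is no separate support. CHAC1, a glutathione-degrading enzyme (1.30 ± 0.47, edgeR adjusted p = 0.0797), also rose past the test without HCT116-EV replicate 3. PPP1R15A, the GADD34 subunit that directs a phosphatase to eIF2 (chr19:48872421-48876058), was at 36.8, 36.6 and 133 CPM in HCT116-EV and at 1290, 1010 and 1100 CPM in HCT116-CDX1 cells. The lowest HCT116-CDX1 library was thus far above the highest HCT116-EV library, the means differed 16.5-fold, and the log2 fold change was 4.04 ± 0.43 (edgeR adjusted p = 1.19e-05).

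SESN2, a leucine-binding restraint on mTORC1, was at 22.4, 27.6 and 76.8 CPM in HCT116-EV and 254, 238 and 242 CPM in HCT116-CDX1 cells (log2 fold change 2.52 ± 0.36, edgeR adjusted p = 0.000182). DDIT4, which also restrains mTORC1, was at 34.6, 34.7 and 138 CPM against 363, 388 and 504 CPM (2.59 ± 0.45, edgeR adjusted p = 0.00083). Neither gene overlapped between the lines. VLDLR had 1, 1 and 5 reads in the HCT116-EV libraries and 74, 33 and 24 in HCT116-CDX1, a pooled ratio of 14.9 (exact 95% interval 7.02 to 37.7) and a log2 fold change of 3.84 ± 0.57 (edgeR adjusted p = 0.000187). VLDLR shares 260 exon bases with its antisense gene. TRIB3, a pseudokinase that feeds back on ATF4, and STC2, a secreted glycoprotein, rose 3.34-fold and 3.22-fold. The STC2 call was lost in limma voom (1.76). Each of these calls was lost in DESeq2, with only the compared lines (1.7 for TRIB3 and 1.64 for STC2) and when a single library was left out. For TRIB3 those libraries were HCT116-EV replicate 2 (1.40) and HCT116-CDX1 replicate 3 (1.66), and for STC2 they were HCT116-EV replicates 1 and 2 (1.32 and 1.31) and each of the HCT116-CDX1 libraries (1.62 to 1.72).

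Of the 6 serine and mitochondrial folate enzymes 1 rose and 1 fell, beside 21.3% and 23.3% of all genes, with a median log2 fold change of 0.05. Without HCT116-EV replicate 3, 2 rose and 1 fell, beside 26.2% and 24.9% of all genes. PSAT1, the transaminase of serine synthesis, rose 1.86-fold (log2 fold change 0.89 ± 0.14, edgeR adjusted p = 0.0172), a call lost without HCT116-EV replicate 1 (0.80) or replicate 2 (0.79), in limma voom (0.56), in DESeq2 (0.91) and with only the compared lines (0.84). MTHFD2, SHMT2, PHGDH and ALDH1L2 did not pass, with log2 fold changes of 0.70, -0.40, 0.47 and -0.37. MTHFD2 passed without HCT116-EV replicate 3, at 0.69 ± 0.07 (edgeR adjusted p = 0.0409). PSPH, the phosphatase of the last step of serine synthesis, fell from 54.6, 52.7 and 40.8 CPM in HCT116-EV to 25.8, 26.5 and 28.1 CPM in HCT116-CDX1 cells (-0.88 ± 0.11, edgeR adjusted p = 0.0066). The PSPH call was lost in DESeq2 (-0.87), and every HCT116-CDX1 library lay below every HCT116-EV library. In HCT116-EV replicate 3 none of these 6 genes was 2-fold above replicates 1 and 2, beside 16.0% of all genes, and the median ratio was 0.956. The ratios went both ways, from 0.615 for SHMT2 and 0.76 for PSPH to 1.46 for PSAT1 and 1.94 for ALDH1L2.

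The other amino acid enzymes held the strongest fall of the group. CTH, cystathionine gamma-lyase, which makes cysteine from cystathionine (chr1:70411268-70439851), was at 138, 134 and 96.2 CPM in HCT116-EV cells. With EHF it was at 16.9, 15.4 and 15.5 CPM, with CDX1 at 16.9, 15.4 and 13.2 CPM, and with both factors at 13.3, 12.2 and 14.4 CPM. All 9 libraries of the lines with EHF, CDX1 or both lay far below all HCT116-EV libraries, and the 3 lines differed little from each other. The log2 fold change was -2.95 ± 0.15 with EHF, -3.01 ± 0.15 with CDX1 and -3.21 ± 0.15 with both, in comparisons that share the HCT116-EV libraries (edgeR adjusted p = 2.18e-07, 3.23e-08 and 8.93e-08). ASNS, asparagine synthetase, was at 125, 120 and 260 CPM in HCT116-EV and 662, 650 and 635 CPM in HCT116-CDX1 cells and rose 3.85-fold (1.94 ± 0.24, edgeR adjusted p = 9.76e-05). GPT2, an alanine transaminase, and PCK2, the mitochondrial PEP carboxykinase, did not pass (0.67 and -0.49), and GPT2 passed without HCT116-EV replicate 3 (0.68 ± 0.06, edgeR adjusted p = 0.0427).

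Among the 8 genes of amino acid import and tRNA export, SLC3A2 alone passed with all libraries, with a log2 fold change of 1.16 ± 0.30 (edgeR adjusted p = 0.0298). Of all genes 21.3% rose and 23.3% fell. The SLC3A2 call was lost in limma voom (0.91), in DESeq2 (1.18) and with only the compared lines (1.11). It was also lost when any HCT116-CDX1 library or HCT116-EV replicate 1 or 2 was left out (0.91 to 1.17). HCT116-EV replicate 3 was as high as HCT116-CDX1 cells for several of these carriers. SLC7A5, for example, was at 1120, 1180 and 3290 CPM in HCT116-EV and 3120, 3010 and 3060 CPM in HCT116-CDX1 cells, and its log2 fold change was 0.72 ± 0.32 with that library and 1.41 ± 0.06 without it. SLC7A5 has 2 near-identical copies, SLC7A5P1 and SLC7A5P2, which can share its reads. Without HCT116-EV replicate 3, 6 of the 8 rose in HCT116-CDX1 cells and 0 fell, beside 26.2% and 24.9% of all genes. The neutral amino acid carriers SLC1A4 and SLC1A5 were not among them, with 0.61 and -0.20.

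HCT116-EV replicate 3 affected the roles unequally. All 7 feedback and stress effectors were at least 2-fold above replicates 1 and 2 in this library, with a median ratio of 3.98, as were 7 of 8 carriers and tRNA export genes (median 2.76), 5 of 7 transcription factors (2.40) and 2 of 4 other amino acid enzymes (1.58). Of all tested genes 16.0% were at least 2-fold above, with a median ratio of 1.05. The ratio was highest for DDIT3 (9.18), followed by SLC6A9, the glycine carrier (5.34), STC2 (5.03), CHAC1 (4.72) and TRIB3 (4.70). Even so, this library stayed below every HCT116-CDX1 library for 20 of the 32 members, beside 43.8% of all tested genes. It was the highest of all 12 libraries for 6 of the 32, beside 22.0% of all genes, and these were ATF5, SLC7A5, SLC6A9, SLC1A5, SLC38A2 and PCK2. Replicates 1 and 2 differed by a median of 1.04-fold over the members, and the highest and lowest library differed by a median of 1.06-fold with EHF, 1.14-fold with CDX1 and 1.13-fold with both factors, beside 2.53-fold in HCT116-EV cells with replicate 3.

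With EHF alone few members passed the 1.5-fold test when all libraries were used. CTH fell as given above and NUPR1 rose, so 1 of 32 members rose and 1 fell, beside 5.68% and 2.65% of all genes, and the median log2 fold change was -0.09 beside -0.04 (0.09 in limma voom). NUPR1 was at 0.372, 0.273 and 0.275 CPM in HCT116-EHF cells, a log2 fold change of 1.69 ± 0.40 (edgeR adjusted p = 0.0465). It rested on 42 reads against 9, with a pooled ratio of 3.14 (exact 95% interval 1.51 to 7.35), and did not pass in limma voom, in DESeq2 or when any library but HCT116-CDX1 replicate 1 was left out (1.46 to 2.06). HCT116-EHF cells were otherwise close to the HCT116-EV mean for the factors, with log2 fold changes of 0.11 for ATF4, -0.02 for DDIT3, 0.17 for CEBPB, -0.17 for CEBPG, 0.08 for JDP2 and -0.61 for ATF5.

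Against HCT116-EV replicates 1 and 2 alone, however, 8 members rose in HCT116-EHF cells and 1 fell, beside 9.47% and 3.60% of all genes, with a median of 0.36 beside 0. The 8 were DDIT4, DDIT3, SLC1A4, PPP1R15A, TRIB3, STC2, SESN2 and CEBPB, with log2 fold changes of 2.11, 1.91, 1.62, 1.26, 1.08, 1.07, 0.79 and 0.78. Their levels were even within HCT116-EHF cells, as for DDIT3 at 22.5, 21.3 and 21.4 CPM, and lay between those of HCT116-EV replicates 1 and 2 and of replicate 3 for all but DDIT4. DDIT4 was at 165, 161 and 123 CPM in HCT116-EHF cells, around the 138 CPM of replicate 3.

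With both factors few members passed the 1.5-fold test against HCT116-EV cells when all libraries were used. Against HCT116-EV, 2 members rose and 1 fell, beside 7.30% and 3.13% of all genes, with a median log2 fold change of 0.20 beside -0.03. NUPR1 was at 1.22, 1.31 and 1.24 CPM (3.78 ± 0.36, edgeR adjusted p = 2.57e-05), and VLDLR, with 27, 44 and 5 reads at 0.472, 0.835 and 0.346 CPM, gave 3.02 ± 0.60 (edgeR adjusted p = 0.00734). In limma voom VLDLR was at 1.5 and its call was lost. NUPR1 and VLDLR passed the filter only through the lines with CDX1, so a fall was not open to them. CTH was the gene that fell. Without HCT116-EV replicate 3 the counts were 14 and 1, beside 11.2% and 4.40% of all genes, with a median of 0.65 beside 0.02, and all 7 feedback and stress effectors were among the 14.

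Compared with HCT116-EHF cells, HCT116-EHF+CDX1 cells differed past the 1.5-fold test in a single member. NUPR1 rose by 2.08 ± 0.29 on the log2 scale (edgeR adjusted p = 0.00314), which makes 1 of 32 members beside 2.49% of all genes, and 0 members fell in edgeR, in limma voom, in DESeq2 and at an unadjusted p of 0.05, beside 0.189% of all genes. The median log2 fold change was 0.21 beside 0, and 28 of the 32 members had a positive log2 fold change, beside 7955 of 15853 genes. Most members thus lay slightly higher without passing the 1.5-fold test. NUPR1 passed the filter only through the lines with CDX1. The other factors were within 0.52 of HCT116-EHF cells on the log2 scale. Leaving out HCT116-EV replicate 3, which changes the fitted spread of this comparison but not its libraries, gave 3 members higher, with ALDH1L2 and VLDLR added, beside 3.32% of all genes higher and 0.826% lower.

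Against HCT116-CDX1 cells, their parental line, HCT116-EHF+CDX1 cells had 2 members higher and 11 lower, beside 22.3% and 18.7% of all genes. EHF, the plasmid, geneticin selection and the taking of clones all differ between these lines and cannot be told apart. The median log2 fold change of the members was -0.80 beside 0.04, and -0.39 in limma voom. The 11 were 4 of the 7 factors (ATF4, DDIT3, CEBPB and CEBPG), the effectors PPP1R15A, SESN2 and TRIB3, the enzymes ASNS and PHGDH, and the carriers SLC3A2 and SLC38A2. Without HCT116-EV replicate 3 in the fit, 17 members were lower and 5 higher, beside 22.3% and 25.8% of all genes. In limma voom 3 of the 32 members were lower, beside 2585 of 15853 genes, a share no larger than that of all genes. SLC38A2, SLC3A2 and TRIB3 (-1.04, -1.17 and -1.72) lost their calls in limma voom (-0.4, -0.57 and -1.31), in DESeq2 and when single libraries were left out. For SLC38A2 this was so for HCT116-EHF replicates 2 and 3 and each library of the compared lines (-1.09 to -0.95), and for SLC3A2 for each library of the compared lines (-1.22 to -1.13). For TRIB3 it was so for HCT116-CDX1 replicate 3 and for replicates 1 and 2 of HCT116-EHF+CDX1 cells (-1.71 to -1.64).

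ATF4 was at 515, 500 and 589 CPM in HCT116-EHF+CDX1 cells, below every HCT116-CDX1 library and 2.15-fold below their mean (log2 fold change -1.10 ± 0.15, edgeR adjusted p = 0.00208). The fall was -0.41 and did not pass in limma voom. PPP1R15A was at 122, 126 and 128 CPM, 9.03-fold below HCT116-CDX1 cells (-3.18 ± 0.42, edgeR adjusted p = 9.15e-05). DDIT3 was at 24.9, 26.9 and 31 CPM (-2.48 ± 0.65, edgeR adjusted p = 0.0126) and SESN2 at 54.7, 53.5 and 64.8 CPM (-2.09 ± 0.35, edgeR adjusted p = 0.00102). For each of these genes the HCT116-EHF+CDX1 libraries came close to the HCT116-EHF libraries, which were at 519, 520 and 498 CPM for ATF4, at 88.2, 90 and 85.6 CPM for PPP1R15A and at 45.6, 42.5 and 41.6 CPM for SESN2.

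CEBPB at 46.8, 45.1 and 48.4 CPM fell by 1.44 ± 0.28 on the log2 scale (edgeR adjusted p = 0.0052), and CEBPG at 80.3, 72.6 and 90.3 CPM fell by 1.30 ± 0.28 (edgeR adjusted p = 0.0111). Both calls were lost in limma voom (-1.16 for CEBPB and -0.94 for CEBPG), as were those of ASNS (-1.17) and PHGDH (-0.34). JDP2 at 31.8, 31 and 37.2 CPM and NUPR1 did not differ past the test (-0.20 and 0.16), and ATF5 at 33.9, 34.4 and 32.7 CPM was 0.96 ± 0.25 higher without passing (edgeR adjusted p = 0.0579). SLC1A4 and PSPH were higher with both factors than with CDX1 alone. SLC1A4 was at 6.29, 5.82 and 24.2 CPM with the empty vector, 20.7, 18.9 and 16.9 CPM with EHF, 8.39, 9.35 and 10.1 CPM with CDX1 and 23.2, 23 and 27 CPM with both (1.39 ± 0.42 against HCT116-CDX1, edgeR adjusted p = 0.0423). This call was lost in limma voom, in DESeq2 and when any library of HCT116-EHF, HCT116-CDX1 or HCT116-EHF+CDX1 cells was left out (1.31 to 1.46). PSPH was at 45.2, 46.6 and 49.6 CPM in HCT116-EHF+CDX1 cells (0.81 ± 0.11, edgeR adjusted p = 0.021), a call lost without HCT116-CDX1 replicate 1 (0.79) or HCT116-EHF+CDX1 replicate 3 (0.78), in limma voom (0.82) and in DESeq2 (0.80).

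**Figure D3:**
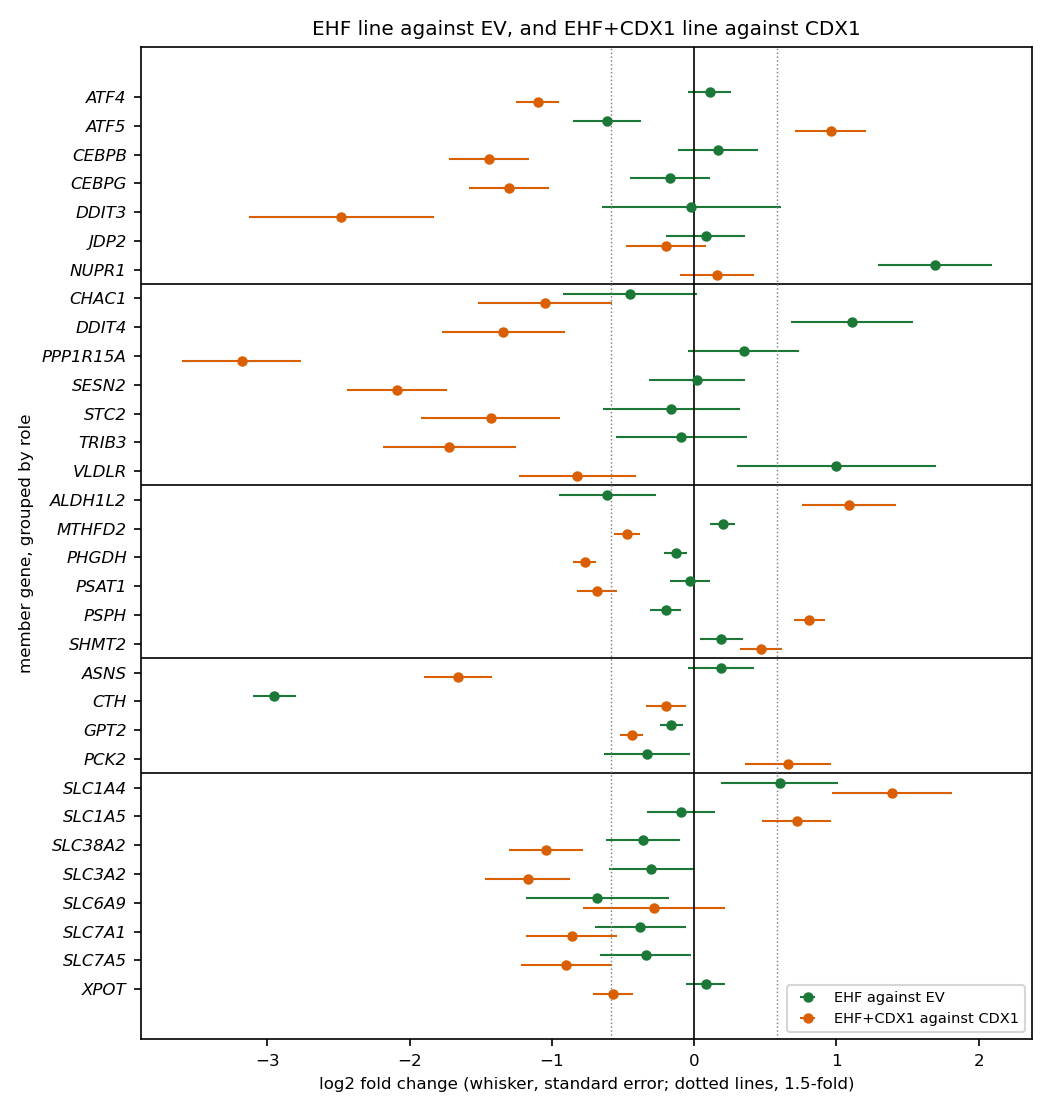
Log2 fold change of each member for HCT116-EHF over HCT116-EV cells and for HCT116-EHF+CDX1 over HCT116-CDX1 cells (x axis), with standard errors as whiskers and dotted lines at a 1.5-fold change, all libraries. ATF4, DDIT3, CEBPB, CEBPG and all 7 stress effectors lie left of 0 in the CDX1 background, whereas CTH lies far left in the EV background alone.

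The interaction, taken as the log2 change with EHF in the CDX1 background less the log2 change with EHF in the EV background, tests whether the change with EHF differed between the backgrounds. It was higher for 4 members and lower for 7, beside 20.2% and 18.0% of all genes, with a median of -0.66 beside 0.05. Among members past the test it was lowest for PPP1R15A (-3.52 ± 0.56, edgeR adjusted p = 0.000475), DDIT4 (-2.45 ± 0.61, edgeR adjusted p = 0.0111) and SESN2 (-2.11 ± 0.49, edgeR adjusted p = 0.00829). ATF4 (-1.21 ± 0.21, edgeR adjusted p = 0.00589), CEBPB (-1.62 ± 0.40, edgeR adjusted p = 0.0161), ASNS and NUPR1 were the other members below 0 past the test. The calls for ATF4 and CEBPB were lost in limma voom (-0.61 and -1.40). The call for NUPR1 (-1.54) was lost in limma voom, in DESeq2 and when any library other than HCT116-CDX1 replicate 1 was left out (-1.90 to -1.30). DDIT3 at -2.46 ± 0.90 (edgeR adjusted p = 0.0593) and CEBPG at -1.13 ± 0.40 (edgeR adjusted p = 0.0913) did not pass, and both passed without HCT116-EV replicate 3.

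The interaction was highest for CTH (2.75 ± 0.20, edgeR adjusted p = 2.09e-06), which was low with EHF in the EV background and already low in HCT116-CDX1 cells. ALDH1L2 followed with 1.69 ± 0.48 (edgeR adjusted p = 0.0288), at 1.34, 1.66 and 2.9 CPM with the empty vector, 1.44, 1.34 and 1.22 with EHF, 1.38, 2.22 and 1.08 with CDX1 and 2.48, 3.7 and 3.87 with both. That call was lost in limma voom and DESeq2 and when HCT116-EHF replicate 2 or 3, HCT116-CDX1 replicate 1 or 3, or HCT116-EHF+CDX1 replicate 2 or 3 was left out (1.49 to 1.70). ATF5 at 1.57 ± 0.35 (edgeR adjusted p = 0.0099) and PSPH at 1.02 were the other members above 0 past the test, and their calls were lost in limma voom for ATF5 (1.46) and in DESeq2 for PSPH. Without HCT116-EV replicate 3, 4 were higher and 19 lower, beside 23.4% and 24.3% of all genes, with a median of -1.19 beside -0.02. The CDX1 level was not the same in the lines compared, as given above, and its part in the interaction cannot be told apart from that of EHF. HCT116-EV and HCT116-EHF cells both carried a plasmid under geneticin selection, while the methods name no geneticin step for HCT116-CDX1 cells. The change with EHF in the CDX1 background thus also holds the plasmid, the geneticin and the taking of clones. Their part in the interaction cannot be told apart from that of EHF either.

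Other genes of the pathway, 97 that are not members, were read from 5 lists, and 92 passed the filter. In HCT116-CDX1 against HCT116-EV cells 28 rose and 18 fell, beside 21.3% and 23.3% of all genes, with a median log2 fold change of 0.39 beside -0.03. Of 17 other stress response targets 8 rose in edgeR, 7 in limma voom, 7 in DESeq2 and 10 at an unadjusted p of 0.05 in edgeR, and 0 fell in each. Leaving out HCT116-EV replicate 3, 14 of the 17 rose and 0 fell, beside 26.2% and 24.9% of all genes. HMOX1, haem oxygenase, was the highest of these at 20.9, 24.9 and 21.9 CPM in HCT116-EV and 595, 657 and 774 CPM in HCT116-CDX1 cells (4.90 ± 0.13, edgeR adjusted p = 3.83e-10). HCT116-EV replicate 3 lay between the other HCT116-EV libraries for this gene.

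Of 20 cytosolic tRNA synthetases 6 rose and 2 fell, of 15 sensors and eIF2 subunits 5 rose and 3 fell, of 17 other amino acid carriers 3 rose and 6 fell, and of 23 other amino acid and folate enzymes 6 rose and 7 fell, beside the same 21.3% and 23.3% of all genes. These counts without HCT116-EV replicate 3 were 8 and 2, 5 and 3, 5 and 6, and 7 and 8, beside 26.2% and 24.9%. PYCR3, a reductase of proline synthesis, fell from 49.2, 52.3 and 26.4 CPM to 0.57, 1.87 and 1.23 CPM (-5.13 ± 0.36, edgeR adjusted p = 3.48e-07). SLC7A2, a cationic amino acid carrier, fell from 35.7, 37.9 and 39.1 CPM to 3.2, 4.85 and 3.78 CPM (-3.25 ± 0.14, edgeR adjusted p = 1.12e-08). BCAT1, a branched-chain transaminase, had 2 reads in HCT116-EV and 169 in HCT116-CDX1 cells, a pooled ratio of 67.1 (exact 95% interval 18.3 to 559). It passed the filter only through the HCT116-CDX1 libraries.

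In HCT116-EHF against HCT116-EV cells 3 of the 92 rose and 1 fell, beside 5.68% and 2.65% of all genes. SLC1A3, a glutamate and aspartate carrier, rose from 4.05, 3.6 and 6.71 CPM to 36.7, 36.8 and 33.9 CPM (2.86 ± 0.20, edgeR adjusted p = 2.81e-06), and NDRG1, a stress and differentiation gene, rose by 1.95 ± 0.20 (edgeR adjusted p = 0.000181). SLC43A2, a carrier of large neutral amino acids, fell by 1.11 ± 0.16 (edgeR adjusted p = 0.0108). With both factors 6 rose and 1 fell against HCT116-EV cells, beside 7.30% and 3.13% of all genes. SLC1A3 was at 62.3, 63.6 and 53.9 CPM (3.61 ± 0.20, edgeR adjusted p = 3.1e-07), and PCK1, the cytosolic PEP carboxykinase, had 205 reads against 1, a pooled ratio of 162 (exact 95% interval 28.8 to 6440). PCK1 passed the filter only through the HCT116-EHF+CDX1 libraries. IMPACT, a restraint on the eIF2 kinase GCN2, was the gene that fell (-0.92 ± 0.10, edgeR adjusted p = 0.00812).

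Compared with HCT116-EHF cells, PCK1 and EIF2AK2, an eIF2 kinase that senses RNA, were higher in HCT116-EHF+CDX1 cells (3.91 ± 0.52 and 0.92 ± 0.11, edgeR adjusted p = 0.000973 and 0.0374), 2 of the 92 beside 2.49% of all genes. Compared with HCT116-CDX1 cells 15 of the 92 were higher and 22 lower, beside 22.3% and 18.7% of all genes, with PYCR3 (4.57 ± 0.36, edgeR adjusted p = 1.13e-06) and PCK1 (3.24 ± 0.49, edgeR adjusted p = 0.000269) highest and BCAT1 (-4.19 ± 0.70, edgeR adjusted p = 0.000512) and HMOX1 (-3.70 ± 0.12, edgeR adjusted p = 3.02e-09) lowest. PYCR3 was at 26.9, 28.4 and 31.1 CPM and HMOX1 at 52.2, 54.2 and 49.1 CPM in HCT116-EHF+CDX1 cells, both again near HCT116-EHF cells, with 20.3, 23.7 and 23.6 CPM and 48.8, 52.5 and 54.8 CPM. In the interaction 17 were higher and 24 lower, beside 20.2% and 18.0% of all genes, with PYCR3 (5.48 ± 0.46, edgeR adjusted p = 2.99e-06) and SLC7A2 (3.35 ± 0.18, edgeR adjusted p = 2.04e-07) highest and BCAT1 (-6.58 ± 1.33, edgeR adjusted p = 0.00198) and HMOX1 (-4.91 ± 0.17, edgeR adjusted p = 4.59e-09) lowest. PCK1 passed the filter only through the HCT116-EHF+CDX1 libraries and BCAT1 only through the HCT116-CDX1 libraries. The directions given here for these genes were thus set by the filter and are no separate support. Without HCT116-EV replicate 3 the counts over the 92 were 39 and 19 for HCT116-CDX1 against HCT116-EV cells, beside 26.2% and 24.9% of all genes. They were 9 and 2 for HCT116-EHF against HCT116-EV cells, beside 9.47% and 3.60%. For HCT116-EHF+CDX1 against HCT116-EV cells they were 13 and 2, beside 11.2% and 4.40%, and in the interaction 19 and 35, beside 23.4% and 24.3%.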

How the data were processed

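Per the labels and the methods of the study, the authors aligned reads from a directional kit to GRCh38/hg38 with Subread 2.0.0, kept unique reads, and deposited raw counts of reads on RefSeq exons from featureCounts 2.0.0 (strand setting not given in the sources used here). The authors also deposited log2 RPKM values, quantile-normalised with limma voom, which were used here for levels between genes. From the counts, edgeR 4.0.16 in R 4.3.3 was run with TMM factors (0.799 to 0.845 in HCT116-CDX1, 0.973 to 1.09 elsewhere), a filter of 0.5 CPM in 3 libraries (0.0585% of counts left out), a quasi-likelihood model over all 12 libraries and glmTreat against a 1.5-fold change. Standard errors are the log2 fold change over the root of F. Alternatives were limma 3.58.1 voom, DESeq2 1.42.0, RLE factors, no filter, a test against no change, only the compared lines, a replicate block, and leaving out each library. The count model was tested on simulated data. Low-count ratios have exact conditional binomial intervals for counting error.

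The members and lists were chosen with earlier results of these data known. Values per library are given for the factors, for members past the test between the combined line and HCT116-EV cells, and for the 3 highest and 3 lowest past it in each other comparison. Of the other pathway genes, the 2 highest and 2 lowest past the test in each comparison are named. ASNS, SLC7A5 and MARS1 were added after their values were seen. Gene positions and promoters are from RefSeq GRCh38.p14, and exon overlaps from GENCODE. Of the members 7 share exon bases with a gene on the other strand: ATF5, CEBPB, DDIT3, JDP2, MTHFD2, SLC6A9 and VLDLR.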

Additional observations from a re-analysis of the deposited data

Results flagged for a closer look

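The change with EHF differed between the CDX1 and EV backgrounds in the interaction test (edgeR glmTreat) for 11 members, and this is what brought them here. It was higher for 4 (CTH, ALDH1L2, ATF5 and PSPH) and lower for 7 (PPP1R15A, DDIT4, SESN2, ASNS, CEBPB, NUPR1 and ATF4), beside 20.2% and 18.0% of all genes tested. With all libraries the first count lay below the share of all genes and the second near it. The number of members flagged with all libraries is therefore not a trait of the members, while their median was -0.66 beside 0.05. Without HCT116-EV replicate 3, 4 were higher and 19 lower, beside 23.4% and 24.3% of all genes. The number flagged thus depends on that library. ASNS had an interaction of -1.85 ± 0.33 (edgeR adjusted p = 0.00224) and NUPR1 of -1.54 ± 0.48 (edgeR adjusted p = 0.0465). Without HCT116-EV replicate 3 the interaction of NUPR1 was -1.90 and did not pass. With 3 libraries per line, HCT116-EV replicate 3 was not judged by a test for single outlying libraries.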

How the results depend on the processing

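No log2 fold change of a member past the test changed its direction under any alternative run. Over single members past the test, 761 values kept the call and 121 lost it. The median log2 fold change of all genes moved by at most 0.05 between scalings. Of all 15853 genes tested, limma voom and DESeq2 called 647 and 743 higher in HCT116-EHF against HCT116-EV. In HCT116-CDX1 against HCT116-EV they called 2691 and 2844 higher, and 2799 and 3020 lower. In HCT116-EHF+CDX1 against HCT116-CDX1 they called 2499 and 2867 higher, and 2585 and 2364 lower. In the interaction they called 2329 and 2599 higher. For HCT116-EHF against HCT116-EV cells, 0 members rose in limma voom, in DESeq2, with all genes of at least 1 count, with only the compared lines and with a replicate block, and 0 to 8 when a library was left out, while 1 rose at an unadjusted p of 0.05 in edgeR. For HCT116-CDX1 against HCT116-EV, 9 rose in limma voom and 10 to 23 when a library was left out, and 1 fell in DESeq2 and 5 against no change. For HCT116-EHF+CDX1 against HCT116-EV, 1 rose in limma voom, 4 rose and 3 fell against no change, and 2 to 14 rose when a library was left out. Against HCT116-EHF, 4 were higher against no change, 3 with only the compared lines and 1 to 3 when a library was left out. Against HCT116-CDX1, 1 was higher in limma voom, 0 in DESeq2 (4 at an unadjusted p of 0.05 in edgeR), 6 against no change, 5 with only the compared lines and 0 to 5 when a library was left out. There, 3 were lower in limma voom, 19 against no change and 8 to 17 when a library was left out. In the interaction, 2 were higher in limma voom and 2 in DESeq2, and 15 were lower against no change and 6 to 19 when a library was left out. Each upper end of these ranges that is over 1.5 times the count with all libraries came from leaving out HCT116-EV replicate 3. The 0 members for HCT116-EHF against HCT116-EV came from leaving out any library other than that one and HCT116-CDX1 replicate 1. Against HCT116-CDX1, 0 or 1 were higher without any HCT116-EHF library, HCT116-CDX1 replicate 1 or 3, or HCT116-EHF+CDX1 replicate 2 or 3. Of the counts over the other pathway genes, 195 stayed within 1.5 times and 31 did not, among them 18 genes that rose in HCT116-CDX1 against HCT116-EV in limma voom, where 28 rose in edgeR. The cause of these differences was not tested, apart from the change of null hypothesis, which asks for less. Replicate numbers did not pair the libraries, as deviations of libraries with the same number correlated between -0.07 and 0.08 over 18 pairs. With the replicate block 15 members rose in HCT116-CDX1 against HCT116-EV and 12 were lower against HCT116-CDX1. Genes below about 3 reads per library, as CBS, could not be compared at this depth.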
